A study of Mus musculus with 23 samples.

Results

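The comparison covers 4 of the 23 libraries of the series, 2 from mouse prostate tumour pieces held ex vivo with cabozantinib plus IL-27 and 2 from pieces held with an antibody to PD-L1. They were chosen by their labels alone, and every one came from an IL-27-vector (IL27v) mouse. The mice were male C57BL/6, 8 to 10 weeks old, with flank tumours of TC2Ras cells, a TRAMP-C2 prostate adenocarcinoma line given an activated H-ras by lentivirus. In all 4 cases IL-27 had been delivered in vivo from the plasmid pTSTA-IL27pepL, which encodes IL-27 joined to a short peptide, pepL, and was put into the tibialis anterior at 10 µg per muscle by ultrasound. The groups therefore differ in the ex vivo exposure, cabozantinib and IL-27 together against anti-PD-L1, and share the in vivo IL-27. No dose or exposure time is given in the sources used here, nor whether the libraries came from separate mice or tumours. The main p-values therefore reflect only the spread between libraries of a group, estimated over all 23 libraries, which may be technical. The tumour grows from 1 transplanted line in the flank rather than in the prostate. Hoxb13, a homeobox gene of prostate epithelium, was at or near 0 in all 4 libraries. Vim, the mesenchymal filament vimentin, reached 4824 and 5812 CPM with cabozantinib plus IL-27 and 4526 and 5188 CPM with anti-PD-L1. CPM here is the deposited count per 1000000 of the library total, scaled by TMM.

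Cabozantinib blocks MET, the VEGF receptors, AXL and related receptor tyrosine kinases, and so acts on tumour cells and vessels. IL-27 is a cytokine of an Il27 and an Ebi3 chain that signals through Il27ra and gp130 to JAK kinases and STAT factors, which can turn on interferon-regulated genes. An antibody to PD-L1, the product of Cd274, blocks the signal that this ligand gives to PD-1 on T cells. Interferon-stimulated genes are commonly driven through the ISRE, bound by complexes of STAT and IRF factors, and through GAS elements, bound by STAT dimers. Genes of cholesterol synthesis are driven by SREBP together with NF-Y, the factor that binds CCAAT boxes.

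Promoters from 2 gene groups that the results turn on, interferon-regulated genes and cholesterol genes, are shown first. For each gene 300 bases of RefSeq sequence (build GRCm38.p6) run 5′ to 3′ along the gene, ending 50 bases past the start. Capitals in the first 3 mark the ISRE letters TTTCNNTTTC, and capitals in the last 2 mark CCAAT, each searched on both strands, so that the reverse letters ATTGG also appear. The genes are those with the smallest p in their lists among members with a promoter in the table that holds the motif, and Dhcr7 has 3 listed promoters, of which the first with a match is printed.
Gbp2 (chr3:142620413-142620712, plus strand): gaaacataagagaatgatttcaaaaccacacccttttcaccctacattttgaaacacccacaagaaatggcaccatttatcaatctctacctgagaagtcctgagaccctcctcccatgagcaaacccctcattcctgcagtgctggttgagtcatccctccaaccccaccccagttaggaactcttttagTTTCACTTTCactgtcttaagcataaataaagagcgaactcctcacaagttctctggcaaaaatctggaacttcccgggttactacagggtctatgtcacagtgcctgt
Gbp5 (chr3:142496684-142496983, plus strand): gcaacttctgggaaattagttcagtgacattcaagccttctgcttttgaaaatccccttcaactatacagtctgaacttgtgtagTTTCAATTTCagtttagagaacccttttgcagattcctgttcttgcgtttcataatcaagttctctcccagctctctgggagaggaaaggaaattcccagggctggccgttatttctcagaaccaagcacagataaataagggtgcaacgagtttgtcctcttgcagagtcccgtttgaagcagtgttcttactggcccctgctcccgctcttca
Ifit3b (chr19:34607707-34608006, plus strand): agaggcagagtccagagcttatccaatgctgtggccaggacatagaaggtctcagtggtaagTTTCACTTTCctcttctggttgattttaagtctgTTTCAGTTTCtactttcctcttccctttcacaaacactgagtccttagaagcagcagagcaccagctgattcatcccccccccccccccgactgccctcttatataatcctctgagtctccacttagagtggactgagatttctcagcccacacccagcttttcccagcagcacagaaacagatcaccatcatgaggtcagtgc
Nsdhl (chrX:72918271-72918570, plus strand): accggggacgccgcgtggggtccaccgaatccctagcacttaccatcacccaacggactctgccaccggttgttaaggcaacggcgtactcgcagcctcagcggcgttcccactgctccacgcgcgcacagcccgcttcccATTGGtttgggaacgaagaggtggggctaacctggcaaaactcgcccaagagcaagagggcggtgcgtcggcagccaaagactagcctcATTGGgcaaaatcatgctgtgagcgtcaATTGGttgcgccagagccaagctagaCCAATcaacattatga
Dhcr7 (chr7:143829964-143830263, plus strand): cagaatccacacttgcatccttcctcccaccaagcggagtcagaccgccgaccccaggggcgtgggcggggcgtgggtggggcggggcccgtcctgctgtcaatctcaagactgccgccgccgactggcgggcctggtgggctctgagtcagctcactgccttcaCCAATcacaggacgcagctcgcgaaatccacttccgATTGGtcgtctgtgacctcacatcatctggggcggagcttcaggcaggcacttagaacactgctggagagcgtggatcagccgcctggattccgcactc

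ISRE letters were in 9 of the 10 interferon-induced GTPase genes with a listed promoter (90%) and in 12 of 22 type I interferon-stimulated genes (54.5%), against 3.99% of all 27025 genes with one. The GAS letters TTCNNNGAA were in 6 of 10 GTPase genes, 4 of 22 interferon-stimulated genes and 2 of 13 MHC class I genes, against 9.55% of all genes. CCAAT was in all 13 cholesterol genes with a listed promoter, against 41.1% of all genes. It was also in 10 of the 13 MHC class I genes, 9 of the 22 interferon-stimulated genes and 2 of the 10 GTPase genes. The ISRE letters were in none of the 13 cholesterol genes. The sterol response letters TCACNCCAC were in 1 of the 13, against 1.44% of all genes. These matches describe letters in the window and say nothing on binding in these tumours.

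The 4 libraries held 72.2 and 62.4 M counts (M, 1000000) for cabozantinib plus IL-27 and 75.1 and 70.9 M for anti-PD-L1, within the 47.6 to 83.1 M of the series. All 4 carried skeletal muscle transcripts (690 to 1077 CPM over the muscle list, groups overlapping) and no Ngp, a neutrophil granule gene. The same held for 4 other IL27v libraries used below for reference. The 2 IL27v media libraries, also cited below, carried muscle transcripts (766 and 645 CPM) but Ngp as well (18.8 and 16.7 CPM). They are therefore not alike in make-up to the 4 libraries compared. Across 13555 genes the 2 cabozantinib plus IL-27 libraries correlated at 0.979 and the 2 anti-PD-L1 libraries at 0.968, while anti-PD-L1 2 correlated with cabozantinib plus IL-27 2 at 0.973. Anti-PD-L1 1 therefore stood farther from the other 3 libraries, and values without it are given where they matter.

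No gene passed the test between the exposures, 0% of the 24440 genes tested (edgeR quasi-likelihood, all 23 libraries, Benjamini-Hochberg adjusted p under 0.05), and the smallest adjusted p was 1. At an unadjusted p under 0.05 there were 839 genes, 551 higher with cabozantinib plus IL-27 (2.25%) and 288 lower (1.18%). Both cabozantinib plus IL-27 libraries lay above both anti-PD-L1 libraries for 5388 genes (22%), and below both for 4875 (19.9%), so a list near these shares does not stand apart from the rest. The median log2 fold change over all tested genes was 0. DESeq2, run as the alternative, called 23 of 23018 genes, 16 higher (0.0695%) and 7 lower (0.0304%), and edgeR on the 4 libraries alone called 1 (0.00557%). With 2 libraries against 2, an exact two-sided permutation test of 1 gene cannot go below a p of 0.33. Because no call was made by the main test, what follows is given as values, fold changes with their standard error (SE) and counts, all with n = 2 libraries a group.

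Interferon-regulated genes lay higher with cabozantinib plus IL-27 almost throughout. Of 17 interferon-induced GTPases, which restrict pathogens inside cells, all 17 had both cabozantinib plus IL-27 libraries above both anti-PD-L1 libraries (22% of all genes did), with a median log2 fold change of 3.93. Of 30 type I interferon-stimulated genes 29 did, with a median of 2.36, and 21 had an unadjusted p under 0.05. None passed the adjusted test. Without the filter on low counts the same test called 16 of the 17 GTPases and 21 of the 30 interferon-stimulated genes, all higher. In that fit 0.785% of all genes were called higher and 0.571% lower. A newer version of the quasi-likelihood fit called no gene with or without the filter.

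Gbp2, a guanylate-binding GTPase with an ISRE in the promoter shown above, was at 103 and 48.4 CPM with cabozantinib plus IL-27 and at 2.48 and 6.36 CPM with anti-PD-L1. The lowest library with the combination was thus several times above the highest with anti-PD-L1, and the log2 fold change was 4.10 ± 1.33 (SE). Gbp5, which promotes inflammasome assembly, was at 17.9 and 10.4 CPM with cabozantinib plus IL-27 and 0.620 and 1.53 CPM with anti-PD-L1, and Gbp4 at 11.2 and 3.94 CPM with cabozantinib plus IL-27 and 0.232 and 0.471 CPM with anti-PD-L1. In both genes cabozantinib plus IL-27 1 was the highest library and anti-PD-L1 1 the lowest. Reads of the Gbp genes, and of Ifit3 and Ifit3b, may be split among close copies, so single members are uncertain.

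Zbp1, a sensor of nucleic acids that can trigger necroptosis, was at 47.2 and 29.5 CPM with cabozantinib plus IL-27 and at 1.45 and 4.26 CPM with anti-PD-L1 (log2 fold change 3.75 ± 1.33, SE). Ifit3b, an interferon-induced antiviral protein whose promoter shows 2 ISRE matches, was at 50.1 and 18.1 CPM with cabozantinib plus IL-27 and 1.17 and 3.79 CPM with anti-PD-L1. Xaf1, an interferon-induced partner of XIAP, was at 31.3 and 28.2 CPM with cabozantinib plus IL-27 and 2.10 and 7.45 CPM with anti-PD-L1. Herc6, the mouse ligase that attaches ISG15 to proteins, was at 13.1 and 9.54 CPM with cabozantinib plus IL-27 and 2.05 and 4.21 CPM with anti-PD-L1. In all of these the groups were separate, and anti-PD-L1 2 lay between anti-PD-L1 1 and the combination.

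**Figure D1:**
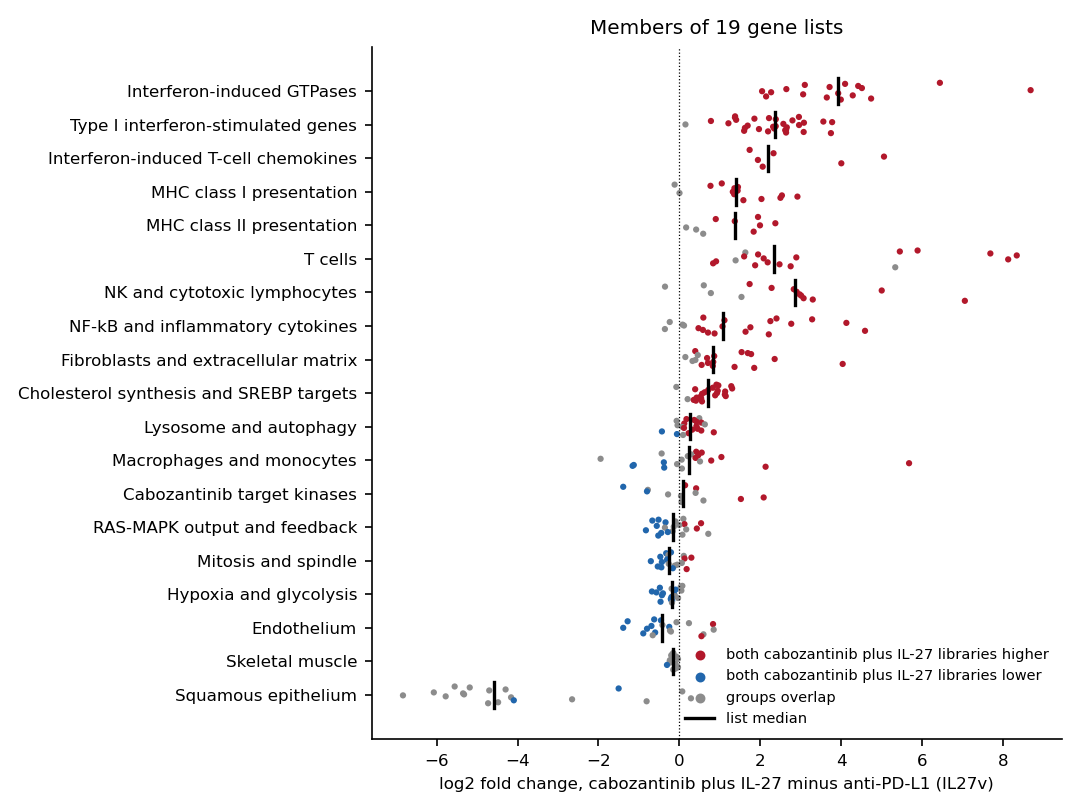
Log2 fold change (x axis) of each tested member of 19 gene lists (rows), cabozantinib plus IL-27 minus anti-PD-L1 in IL27v libraries; red points have both cabozantinib plus IL-27 libraries higher, blue both lower, grey overlapping groups, and the black bar is the list median. The medians run from 3.93 for the interferon-induced GTPases to -4.59 for the squamous list. In the squamous list 2 of 18 members are lower in both combination libraries (19.9% of all genes were) and 16 overlap. Points near 8 in the T-cell row are genes at 0 in both anti-PD-L1 libraries, whose fitted fold depends on the prior count.

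Over the 16 genes of the IL-27 chains, receptor and JAK-STAT signalling, 8 lay higher in both combination libraries (22% of all genes did) and 2 lower (19.9%). Their median log2 fold change was 0.23. Il27ra, the specific receptor chain, was at 3.25 and 3.03 CPM with cabozantinib plus IL-27 and 2.04 and 2.65 CPM with anti-PD-L1. Socs3, a feedback inhibitor of gp130 signalling, was at 68.9 and 71.8 CPM with cabozantinib plus IL-27 and 35 and 61.3 CPM with anti-PD-L1 (0.55 ± 0.61, SE). Socs3 in anti-PD-L1 2 lay near the combination. The Il27 chain itself was at 0 and 0.0615 CPM with cabozantinib plus IL-27 and 0.0516 and 0.175 CPM with anti-PD-L1. Ebi3 was at 0.323 and 0.308 CPM with cabozantinib plus IL-27 and 0.129 and 0.269 CPM with anti-PD-L1, so the transcripts of both cytokine chains were scarce in every one of the 4 pieces.

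Antigen presentation genes followed the same order. Of 15 genes of MHC class I presentation, 13 were higher in both combination libraries (22% of all genes were), with a median log2 fold change of 1.40. Tap1, a subunit of the peptide transporter, was at 41.2 and 28.5 CPM with cabozantinib plus IL-27 and 2.68 and 9.64 CPM with anti-PD-L1. Psmb9, an immunoproteasome subunit, was at 5.14 and 6.07 CPM with cabozantinib plus IL-27 and 0.658 and 0.820 CPM with anti-PD-L1. Irf1, an interferon-induced factor that activates this pathway, was at 70.7 and 63.9 CPM with cabozantinib plus IL-27 and 14.9 and 34.7 CPM with anti-PD-L1. For all 3 the groups were separate, and Irf1 had the anti-PD-L1 library nearest to the combination. Of 9 class II genes 6 were higher in both, with a median of 1.37, and none was lower in both. H2-Aa, a class II chain, was at 15.7 and 22.6 CPM with cabozantinib plus IL-27 and 2.94 and 4.44 CPM with anti-PD-L1, and Cd74, the invariant chain, at 48.6 and 53.9 CPM with cabozantinib plus IL-27 and 10.1 and 16.5 CPM with anti-PD-L1.

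All 6 interferon-induced T-cell chemokine genes were higher in both combination libraries (22% of all genes were), with a median of 2.19. Cxcl9, a ligand of CXCR3, was at 9.79 and 7.77 CPM with cabozantinib plus IL-27 and 0.258 and 0.834 CPM with anti-PD-L1 (log2 fold change 4.00 ± 1.38, SE). Cxcl10, another CXCR3 ligand, was at 80.5 and 42.4 CPM with cabozantinib plus IL-27 and 4.96 and 19.5 CPM with anti-PD-L1. Cxcl16, the ligand of CXCR6, was at 25.5 and 16.6 CPM with cabozantinib plus IL-27 and 5.43 and 5.50 CPM with anti-PD-L1.

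The interferon-regulated genes also varied between libraries of 1 exposure. Their summed level over the 30 interferon-stimulated genes was 1293 and 873 CPM with cabozantinib plus IL-27 and 178 and 347 CPM with anti-PD-L1. In the IL27v libraries held with cabozantinib alone the sums were 167 and 1096 CPM, in media 257 and 2065 CPM, and in the single library with ex vivo IL-27 alone 728 CPM. The gap between libraries of 1 exposure was thus as wide as the gap between the exposures compared here. A piece with cabozantinib alone lay at the anti-PD-L1 level and the other at the level of the combination, and the same split appeared for the GTPases, at 29.6 and 255 CPM with cabozantinib alone. The part of tumour piece or mouse in the difference was not tested.

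**Figure D2:**
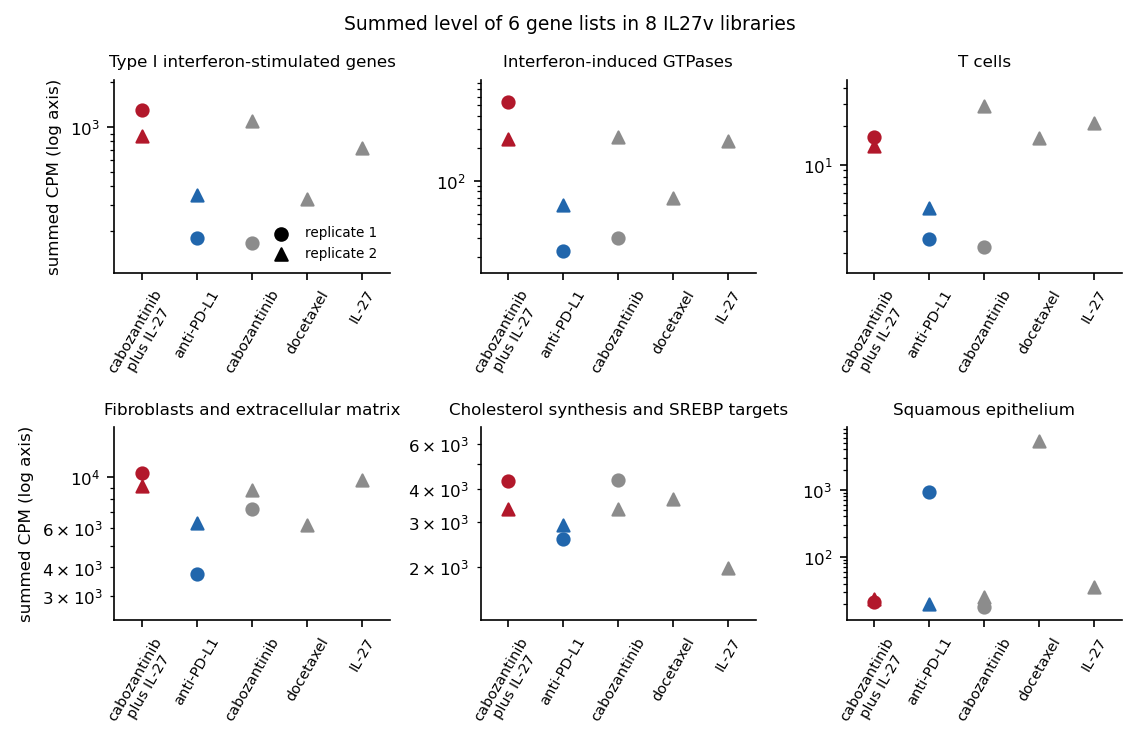
Summed CPM of 6 gene lists (one panel each, y on a log axis) in the 8 IL27v libraries that hold muscle transcripts and no Ngp, a neutrophil granule gene, by ex vivo exposure on the x axis; red is cabozantinib plus IL-27, blue anti-PD-L1, grey other exposures, circles replicate 1 and triangles replicate 2. Cabozantinib alone spans 167 to 1096 CPM for the interferon-stimulated genes, as wide as the gap between cabozantinib plus IL-27 and anti-PD-L1, and anti-PD-L1 1 at 916 CPM stands apart from anti-PD-L1 2 at 19.7 CPM for the squamous genes.

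Lymphocyte transcripts were higher with cabozantinib plus IL-27 but scarce throughout. The 18 T-cell genes together came to 16.4 and 14.1 CPM with cabozantinib plus IL-27 and 2.61 and 4.56 CPM with anti-PD-L1. Of the 18, 15 had separate groups, all higher (22% of all genes were higher in both libraries). Their median log2 fold change was 2.33, or 2.13 with the 4 genes at 0 in both anti-PD-L1 libraries set at the fold against a floor of 3 counts per library. The T-cell sum also varied between libraries of 1 exposure, at 3.98 and 13.8 CPM in IL27v media and 2.24 and 29.0 CPM with cabozantinib alone. The gap between the 2 pieces with cabozantinib alone was wider than that between the exposures compared here, and its source was not tested. In bulk tissue more cells of a type and more RNA per cell cannot be told apart. Cd3e, a CD3 chain that signals for the T-cell receptor, was at 0.645 and 0.185 CPM with cabozantinib plus IL-27 and 0.0516 and 0.161 CPM with anti-PD-L1. Cd8a, the co-receptor of cytotoxic T cells, was at 0.723 and 0.292 CPM with cabozantinib plus IL-27 and listed at 0 in both anti-PD-L1 libraries, where the floor of 3 counts corresponds to 0.0395 CPM. Cd4, the helper co-receptor, was at 0.542 and 0.661 CPM with cabozantinib plus IL-27 and 0.232 and 0.161 CPM with anti-PD-L1.

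Of 14 tested NK and cytotoxic genes of 15, 10 were higher in both combination libraries (22% of all genes were). Their summed levels were 41.1 and 44.0 CPM with cabozantinib plus IL-27 and 6.47 and 13.6 CPM with anti-PD-L1. In IL27v media the sums were 5.57 and 111 CPM, and with cabozantinib alone 5.73 and 54.2 CPM, so replicates of 1 exposure also differed widely. Gzmb, a granzyme that kills target cells, was at 5.11 and 11.7 CPM with cabozantinib plus IL-27 and 1.01 and 1.36 CPM with anti-PD-L1 (log2 fold change 2.83 ± 1.57, SE). Il2rb, a receptor chain for IL-2 and IL-15, was at 5.17 and 6.06 CPM with cabozantinib plus IL-27 and 0.413 and 1.09 CPM with anti-PD-L1. Klrk1, the activating receptor NKG2D, was at 2.01 and 1.86 CPM with cabozantinib plus IL-27 and 0.168 and 0.309 CPM with anti-PD-L1. Ifng, the gene of interferon gamma, was at 0.0516 and 0.0615 CPM with cabozantinib plus IL-27 and at 0 in both anti-PD-L1 libraries, too few counts for a fold.

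Among 20 checkpoint ligands and receptors 13 were higher (22% of all genes were) and 2 lower (19.9%) in both combination libraries. The list median was 1.11, or 0.99 with the 1 gene at 0 set at its bound. Summed levels were 521 and 494 CPM with cabozantinib plus IL-27 and 444 and 453 CPM with anti-PD-L1. In IL27v media they were 535 and 753 CPM, and with cabozantinib alone 421 and 536 CPM. Cd274, the gene of PD-L1 itself, was at 31.3 and 36.8 CPM with cabozantinib plus IL-27 and 11.6 and 28.0 CPM with anti-PD-L1, a log2 fold change of 0.78 ± 0.77 (SE). Its groups were separate, but anti-PD-L1 2 lay close to the combination. The groups were further apart in Ctla4 and Lgals9. Ctla4, an inhibitory receptor of T cells, was at 2.08 and 2.21 CPM with cabozantinib plus IL-27 and 0.103 and 0.269 CPM with anti-PD-L1. Lgals9, a galectin that binds TIM-3, was at 74.5 and 58.1 CPM with cabozantinib plus IL-27 and 17.5 and 32.5 CPM with anti-PD-L1. Pdcd1, the gene of PD-1, was at 0.619 and 1.02 CPM with cabozantinib plus IL-27 and 0 and 0.108 CPM with anti-PD-L1.

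Of the 8 B-cell genes listed, 1 was higher (22% of all genes were) and 1 lower (19.9%) in both combination libraries, and 6 overlapped. Ighm, the IgM heavy chain, was at 220 and 4.66 CPM with cabozantinib plus IL-27 and at 1.5 and 6.67 CPM with anti-PD-L1, so 1 library alone held most of it. The B-cell list median was 2.99, and 0.09 without that library. The B-cell sum was 281 CPM in cabozantinib plus IL-27 1 and 7.01 CPM in cabozantinib plus IL-27 2, against 2.53 and 8.98 CPM with anti-PD-L1. The summed macrophage and monocyte level was 935 and 1019 CPM with cabozantinib plus IL-27 and 1035 and 1021 CPM with anti-PD-L1, with a list median of 0.25.

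Of 20 genes of NF-kB and inflammatory cytokines 16 were higher in both combination libraries (22% of all genes were), with a median of 1.09. Summed levels were 1069 and 1173 CPM with cabozantinib plus IL-27, 630 and 930 CPM with anti-PD-L1, and 651 and 1896 CPM in IL27v media. Vcam1, an adhesion molecule for leukocytes, was at 57.0 and 46.8 CPM with cabozantinib plus IL-27 and 6.66 and 15.8 CPM with anti-PD-L1 (log2 fold change 2.21 ± 0.61, SE). Itga4, the integrin chain that binds VCAM1, was at 7.6 and 3.55 CPM with cabozantinib plus IL-27 and 0.671 and 0.740 CPM with anti-PD-L1 (2.98 ± 0.71, SE; DESeq2 adjusted p = 0.0129). Icam1, the ligand of LFA-1, was at 46.0 and 12.6 CPM with cabozantinib plus IL-27 and 2.41 and 3.60 CPM with anti-PD-L1. In all 3 adhesion genes both combination libraries lay above both anti-PD-L1 libraries, and Icam1 differed most between the combination libraries. Il6, an inflammatory cytokine, was at 32.2 and 24.3 CPM with cabozantinib plus IL-27 and 0.271 and 2.96 CPM with anti-PD-L1, and reached 22.1 CPM in 1 IL27v docetaxel library. Ccl2, which attracts monocytes, was at 410 and 360 CPM with cabozantinib plus IL-27 and 52.7 and 174 CPM with anti-PD-L1. C2, a complement protease component that interferons induce, was at 23.3 and 14.1 CPM with cabozantinib plus IL-27 and 0.671 and 0.713 CPM with anti-PD-L1 (4.75 ± 1.25, SE), with a DESeq2 adjusted p of 0.0114. In IL27v media C2 was at 1.01 and 43.3 CPM, and with cabozantinib alone at 1.04 and 9.59 CPM. Itga4 was at 2.29 and 7.53 CPM in media, so both genes also differed widely between libraries of 1 exposure.

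Genes of cholesterol synthesis and other SREBP targets also lay higher with cabozantinib plus IL-27, by smaller folds and with closer replicates. Of 23 genes, all tested, 21 were higher in both combination libraries (22% of all genes were), with a median log2 fold change of 0.71. An unadjusted p under 0.05 was found for 8 (2.25% of all genes higher), and DESeq2 called 2, Nsdhl and Dhcr7. None passed the adjusted edgeR test.

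Nsdhl (chrX:72918557-72958514, GRCm38), a sterol dehydrogenase that removes a methyl group from lanosterol derivatives, was at 81.2 and 62.6 CPM with cabozantinib plus IL-27 and 30.9 and 34.1 CPM with anti-PD-L1. The log2 fold change was 1.15 ± 0.27 (SE), with an unadjusted p of 0.000591 and a DESeq2 adjusted p of 0.0129. Dhcr7, the last enzyme of the pathway by 1 of its routes, was at 24.7 and 16.4 CPM with cabozantinib plus IL-27 and 8.53 and 8.37 CPM with anti-PD-L1 (1.28 ± 0.34, SE; DESeq2 adjusted p = 0.0343). In both genes the anti-PD-L1 libraries were nearly equal and well below the combination. Insig1, the sterol-sensing retention protein of SREBP, was at 89.4 and 65.6 CPM with cabozantinib plus IL-27 and 30.3 and 40.4 CPM with anti-PD-L1. Lss, lanosterol synthase, was at 131 and 89.4 CPM with cabozantinib plus IL-27 and 55.3 and 60.5 CPM with anti-PD-L1. The gene with the highest fold change in the list, 1.31, was Fdps, the farnesyl diphosphate synthase, at 338 and 237 CPM with cabozantinib plus IL-27 and 105 and 127 CPM with anti-PD-L1.

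**Figure D3:**
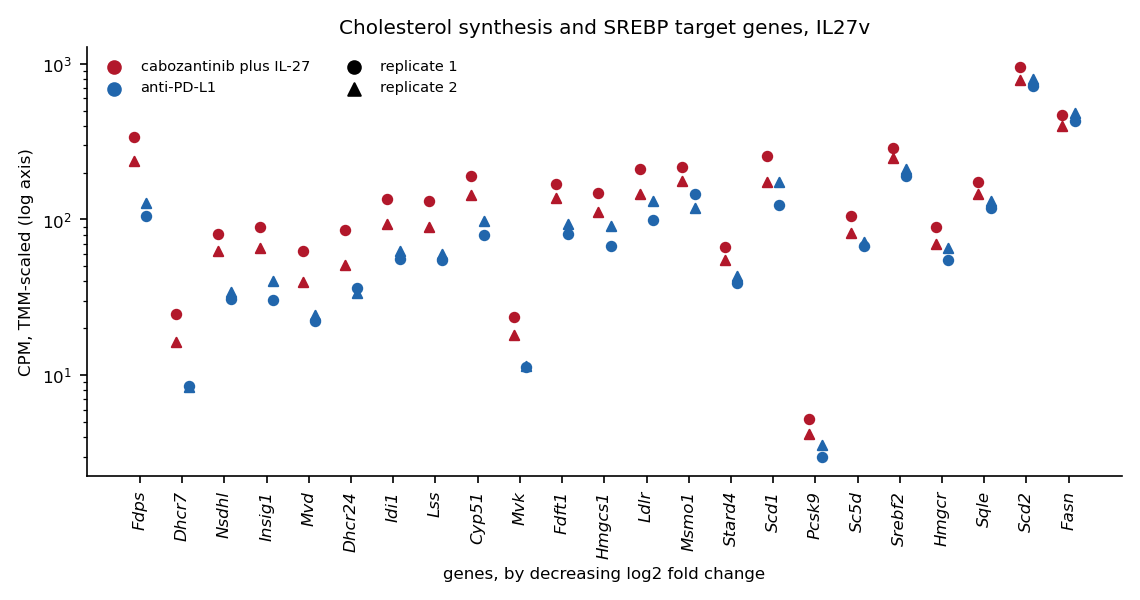
Level of the 23 cholesterol synthesis and SREBP target genes (x axis, by decreasing fold change) as TMM-scaled CPM on a log y axis, in cabozantinib plus IL-27 (red, left) and anti-PD-L1 (blue, right) IL27v libraries, circles replicate 1 and triangles replicate 2. The red points lie above the blue ones for 21 genes; Scd2 and Fasn, the last in the order, are those whose groups overlap.

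Outside the list, 3 metabolic genes stood among the 15 with the smallest p. Acat2, the cytosolic thiolase that feeds sterol synthesis, was at 138 and 97.6 CPM with cabozantinib plus IL-27 and 39.7 and 53.5 CPM with anti-PD-L1 (1.34 ± 0.37, SE). Idh1, the cytosolic isocitrate dehydrogenase that makes NADPH, was at 76.6 and 48.5 CPM with cabozantinib plus IL-27 and 18.2 and 22.4 CPM with anti-PD-L1 (1.62 ± 0.39, SE; DESeq2 adjusted p = 0.0295). Hacl1, a peroxisomal lyase of fatty acid alpha-oxidation, was at 10.1 and 8.69 CPM with cabozantinib plus IL-27 and 3.36 and 3.85 CPM with anti-PD-L1 (DESeq2 adjusted p = 0.00512).

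In fold terms, the cholesterol sums differed less between the 2 pieces held with cabozantinib alone than the interferon sums did. The summed level was 4321 and 3357 CPM with cabozantinib plus IL-27, 4349 and 3356 CPM with cabozantinib alone, 1987 CPM in the library with IL-27 alone and 3674 CPM in docetaxel 2, against 2577 and 2920 CPM with anti-PD-L1. Nsdhl was at 72.4 and 72.2 CPM with cabozantinib alone, 34.2 CPM with IL-27 alone and 54.9 CPM in docetaxel 2. Among these 8 libraries the 4 with cabozantinib were the highest for Nsdhl. Dhcr7 broke this order, at 20.8 CPM in docetaxel 2 and at 18.3 and 16.4 CPM with cabozantinib alone. The list sum broke it too. The gap in list sum between the cabozantinib-alone pieces was wider than that between cabozantinib plus IL-27 2 and anti-PD-L1 2. In IL27v media, outside these 8, the list sums were 2665 and 2000 CPM.

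Extracellular matrix and fibroblast genes also lay higher. Of 18 such genes 14 were higher in both combination libraries (22% of all genes were) and none lower (19.9%), with a median log2 fold change of 0.83. Summed levels were 10416 and 9156 CPM with cabozantinib plus IL-27 and 3738 and 6303 CPM with anti-PD-L1. In IL27v media they were 5430 and 14252 CPM, a gap as wide as that between the exposures. With cabozantinib alone they were 7264 and 8793 CPM. Fap, the fibroblast activation protease, was at 3.32 and 2.91 CPM with cabozantinib plus IL-27 and 0.594 and 0.619 CPM with anti-PD-L1 (2.36 ± 0.68, SE). Col1a2, a chain of type I collagen, was at 1008 and 951 CPM with cabozantinib plus IL-27 and 152 and 454 CPM with anti-PD-L1. Sparc, a matrix protein that binds collagen, was at 1462 and 1111 CPM with cabozantinib plus IL-27 and 427 and 572 CPM with anti-PD-L1. In these 3 the groups were separate, and anti-PD-L1 1 was the lowest library of each. Mfap5, a protein of elastic microfibrils, was at 39.9 and 20.6 CPM with cabozantinib plus IL-27 and 0.439 and 3.24 CPM with anti-PD-L1. Ctsk, a collagen-cutting cathepsin, was at 103 and 39.2 CPM with cabozantinib plus IL-27 and 18 and 12.4 CPM with anti-PD-L1. Its log2 fold change was 2.23 ± 0.56 (SE), or 1.36 without cabozantinib plus IL-27 1, with a DESeq2 adjusted p of 0.0492 over all libraries. In IL27v media Ctsk was at 26.3 and 120 CPM, so it too differed widely between libraries of 1 exposure.

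Other genes among the 15 with the smallest p that were higher with the combination were spread over functions. Penk, the precursor of enkephalins, was at 38.8 and 3.48 CPM with cabozantinib plus IL-27 and 0.581 and 1.51 CPM with anti-PD-L1, with a log2 fold change of 4.34 ± 0.97 (SE) that was 1.73 without cabozantinib plus IL-27 1. Mbp, myelin basic protein, was at 69.9 and 15.7 CPM with cabozantinib plus IL-27 and 7.72 and 7.34 CPM with anti-PD-L1. Scara5, a scavenger receptor for ferritin, was at 5.47 and 4.23 CPM with cabozantinib plus IL-27 and 0.439 and 0.525 CPM with anti-PD-L1. Scara5 was even within both groups, whereas Penk and Mbp were highest in cabozantinib plus IL-27 1. Fam20a, a pseudokinase that activates the secretory kinase FAM20C, was at 4.99 and 5.26 CPM with cabozantinib plus IL-27 and 0.929 and 1.43 CPM with anti-PD-L1 (2.12 ± 0.56, SE; DESeq2 adjusted p = 0.0302). Galnt15, a glycosyltransferase of mucin-type chains, was at 14.5 and 8.95 CPM with cabozantinib plus IL-27 and 2.62 and 4.99 CPM with anti-PD-L1. Plekha4 was at 8.79 and 2.40 CPM with cabozantinib plus IL-27 and 0.168 and 0.471 CPM with anti-PD-L1 (DESeq2 adjusted p = 0.0295). Ighg3, an immunoglobulin heavy chain, was at 11.1 and 2.41 CPM with cabozantinib plus IL-27 and at 0 in both anti-PD-L1 libraries.

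**Figure D4:**
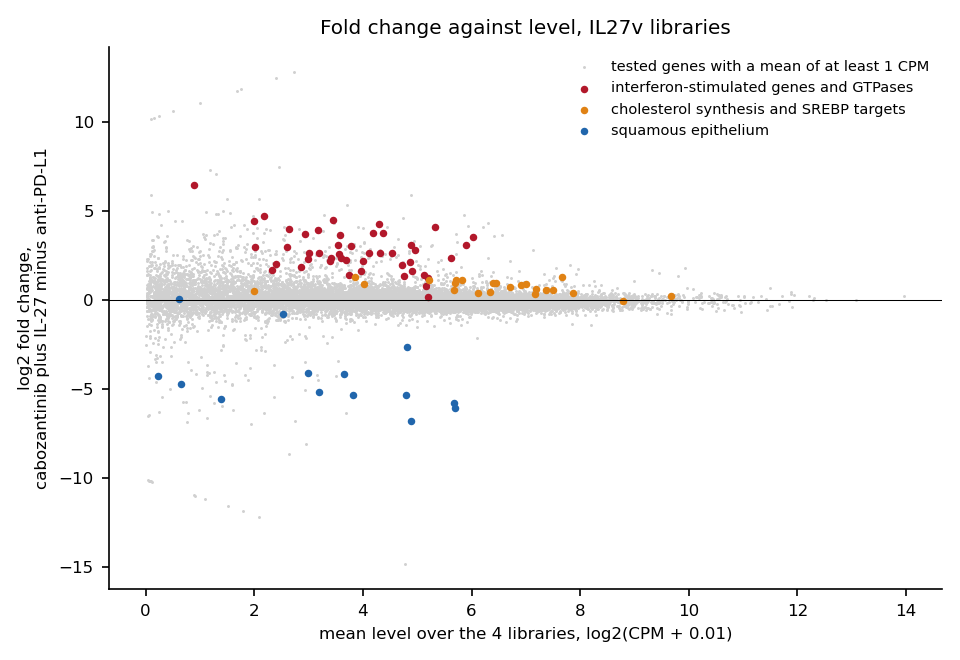
Log2 fold change (y axis, cabozantinib plus IL-27 minus anti-PD-L1, IL27v) against the mean level of the 4 libraries (x axis, log2 of CPM plus 0.01) for tested genes with a mean of at least 1 CPM; grey points are all such genes, red the interferon-stimulated genes and GTPases, orange the cholesterol genes and blue the squamous genes. The cholesterol genes sit at higher levels and fold changes of up to 1.31, and the interferon genes sit at lower levels and larger fold changes.

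The genes that were lowest with the combination were those of stratified squamous epithelium, and they were set by 1 library. The 18 squamous genes summed to 21.5 and 23.5 CPM with cabozantinib plus IL-27 and to 916 and 19.7 CPM with anti-PD-L1. Their median log2 fold change was -4.59, but 0.01 without anti-PD-L1 1. Of the 18, 2 were lower in both combination libraries (19.9% of all genes were) and 0 higher (22%). Krt16, a keratin of activated epidermis, was at 1.68 and 0.969 CPM with cabozantinib plus IL-27 and 107 and 0.847 CPM with anti-PD-L1. Dsp, desmoplakin of the desmosome, was at 0.697 and 0.277 CPM with cabozantinib plus IL-27 and 35.2 and 0.511 CPM with anti-PD-L1. The 2 IL27v docetaxel libraries held 5433 and 5330 CPM of the same genes.

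Lama3 and Col17a1 differed from that pattern in that the second anti-PD-L1 library was also above the combination. Lama3, a chain of laminin-332 in epithelial basement membrane, was at 0.297 and 0.338 CPM with cabozantinib plus IL-27 and 12.9 and 1.25 CPM with anti-PD-L1 (-4.47 ± 0.88, SE; DESeq2 adjusted p = 0.000231). Col17a1, a collagen of the hemidesmosome, was at 1.63 and 2.38 CPM with cabozantinib plus IL-27 and 37.5 and 5.22 CPM with anti-PD-L1 (-3.41 ± 0.73, SE; DESeq2 adjusted p = 0.00291). Kprp, a keratinocyte protein, was at 0.336 and 0.369 CPM with cabozantinib plus IL-27 and 12.7 and 0.699 CPM with anti-PD-L1. Without anti-PD-L1 1 the log2 fold changes were -1.97 for Lama3, -1.38 for Col17a1 and -0.99 for Kprp. These 3 genes passed the adjusted edgeR test when anti-PD-L1 2 was left out (0.0123% of the genes tested there), which leaves anti-PD-L1 1, the library with the squamous transcripts, as the only anti-PD-L1 library. In Slc46a3, a lysosomal transporter, both anti-PD-L1 libraries were alike and above the combination, with 0.555 and 0.354 CPM with cabozantinib plus IL-27 and 2.25 and 2.54 CPM with anti-PD-L1 (-2.39 ± 0.67, SE).

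The genes of the kinases that cabozantinib inhibits showed no common direction. Of 12 tested target kinase genes of 13, 4 were higher (22% of all genes were) and 2 lower (19.9%) in both combination libraries. Their median log2 fold change was 0.10. Met, the receptor for HGF, was at 43.4 and 47.7 CPM with cabozantinib plus IL-27 and 37.9 and 50.7 CPM with anti-PD-L1 (0.04 ± 0.47, SE). Axl, the receptor for GAS6, was at 539 and 529 CPM with cabozantinib plus IL-27 and 444 and 523 CPM with anti-PD-L1 (0.14 ± 0.24, SE). Flt1, the VEGF receptor 1 gene, was at 14.7 and 12.9 CPM with cabozantinib plus IL-27 and 32.3 and 40.1 CPM with anti-PD-L1 (-1.39 ± 0.73, SE). Met overlapped between the groups, while Flt1 was lower with the combination in both libraries. Kdr, the VEGF receptor 2 gene, was at 9.70 and 4.74 CPM with cabozantinib plus IL-27 and 11 and 14.1 CPM with anti-PD-L1. Ntrk2, the receptor for BDNF, was at 8.98 and 4.37 CPM with cabozantinib plus IL-27 and 1.34 and 1.80 CPM with anti-PD-L1. Flt1 and Kdr lay lower in both combination libraries, while Flt4, another VEGF receptor gene, overlapped (log2 fold change -0.78). Of the 19 endothelial genes 9 were lower in both (19.9% of all genes were) and 2 higher (22%). Their list median was -0.42, or -0.16 without cabozantinib plus IL-27 2 and -0.60 without cabozantinib plus IL-27 1. Endothelial sums were 428 and 354 CPM with cabozantinib plus IL-27, 502 and 558 CPM with anti-PD-L1, and 619 and 219 CPM in IL27v media. The 2 media libraries thus lay farther apart than the 2 groups. Vegfd, a ligand of VEGF receptors, was at 32.0 and 35.7 CPM with cabozantinib plus IL-27 and 8.49 and 23.8 CPM with anti-PD-L1, and Apln, a peptide of vessel tip cells, at 164 and 183 CPM with cabozantinib plus IL-27 and 269 and 266 CPM with anti-PD-L1.

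RAS-MAPK output is read in this line because of the H-ras transgene. Hras itself was at 23.7 and 23.1 CPM with cabozantinib plus IL-27 and 24 and 18.2 CPM with anti-PD-L1. Of 20 output and feedback genes 8 were lower (19.9% of all genes were) and 3 higher (22%) in both combination libraries. Their median log2 fold change was -0.15. Summed levels were 2366 and 2688 CPM with cabozantinib plus IL-27 and 2816 and 3181 CPM with anti-PD-L1. In IL27v media they were 1562.8 and 1708.5 CPM, and with cabozantinib alone 2725 and 2503 CPM. Both groups compared here thus lay above media. Spry4, an inhibitor of receptor signalling induced by the pathway, was at 67.7 and 73.2 CPM with cabozantinib plus IL-27 and 102 and 99.9 CPM with anti-PD-L1 (-0.52 ± 0.41, SE). Dusp5, a phosphatase of nuclear ERK, was at 117 and 154 CPM with cabozantinib plus IL-27 and 216 and 214 CPM with anti-PD-L1. Plaur, the urokinase receptor, was at 86.1 and 78.5 CPM with cabozantinib plus IL-27 and 143 and 149 CPM with anti-PD-L1. These 3 genes lay lower in both combination libraries. Dusp6, a phosphatase of cytoplasmic ERK, overlapped, at 71.7 and 78.3 CPM with cabozantinib plus IL-27 and 74.8 and 85.5 CPM with anti-PD-L1.

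Hypoxia, glycolysis and mitosis genes lay slightly lower with the combination. Of 19 hypoxia and glycolysis genes measured, 12 were lower in both libraries (19.9% of all genes were) and none higher (22%), with a median of -0.19. Slc2a1, the glucose transporter GLUT1, was at 403 and 529 CPM with cabozantinib plus IL-27 and 676 and 611 CPM with anti-PD-L1. Hk2, a hexokinase, was at 85.6 and 102 CPM with cabozantinib plus IL-27 and 143 and 135 CPM with anti-PD-L1. Of 20 mitosis and spindle genes 11 were lower (19.9% of all genes were) and 3 higher (22%) in both, with a median of -0.27. Prc1, which bundles the central spindle, was at 88.8 and 102 CPM with cabozantinib plus IL-27 and 149 and 127 CPM with anti-PD-L1. Mki67, a marker of cycling cells, overlapped, at 168 and 200 CPM with cabozantinib plus IL-27 and 189 and 252 CPM with anti-PD-L1. None of these genes passed the adjusted test.

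Of the 19 lists plotted, the medians kept their sign when any 1 of the 4 libraries was left out, apart from the squamous list, the target kinases, the RAS-MAPK list and the muscle list. They ranged from 1.81 to 3.34 for the interferon-stimulated genes, from 2.94 to 4.93 for the GTPases, from 0.49 to 0.91 for the cholesterol genes and from 0.54 to 1.31 for the fibroblast genes. Without anti-PD-L1 2 the median was 5.82 for the T-cell genes, 4.38 for the NK and cytotoxic genes and 2.34 for the class II genes, each more than 1.5 times the value with all libraries. At least 4 of the 18 T-cell genes and 2 of the 14 NK and cytotoxic genes were at 0 in the anti-PD-L1 library left. The fitted folds of such genes depend on the prior count, so the first 2 medians are uncertain in size.

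**Figure D5:**
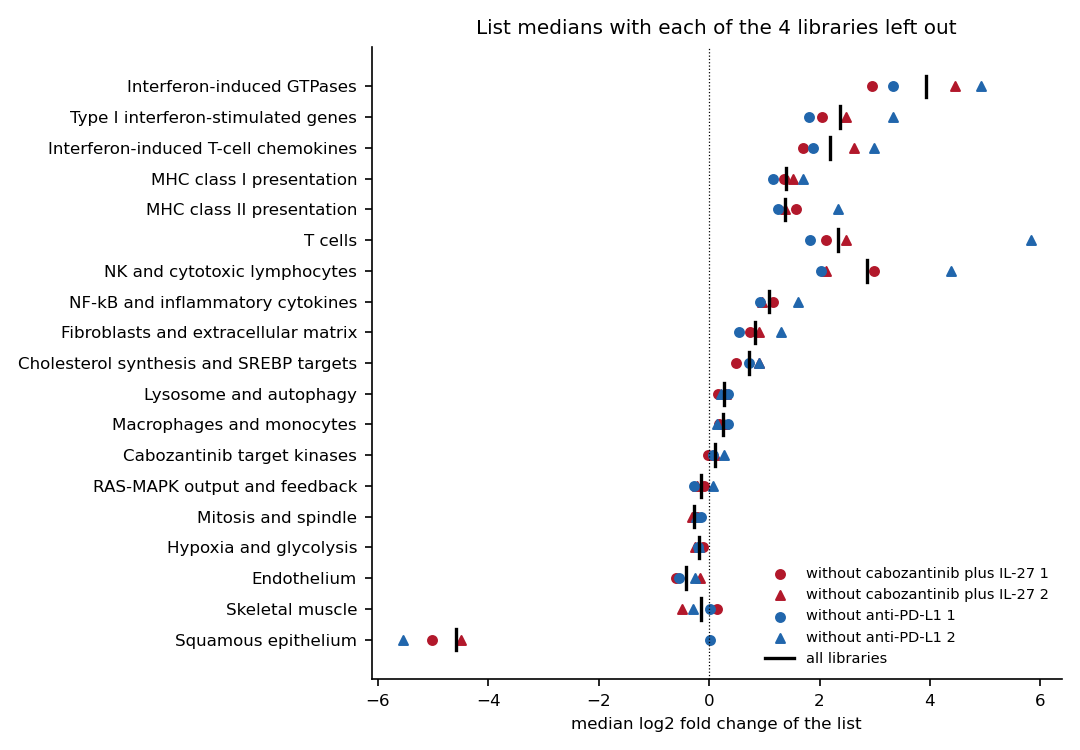
Median log2 fold change (x axis) of the same 19 lists with each of the 4 libraries left out in turn; the black bar is the value with all libraries, red symbols leave out a cabozantinib plus IL-27 library and blue symbols an anti-PD-L1 library (circles replicate 1, triangles replicate 2). Leaving out anti-PD-L1 1 puts the squamous median at 0.01 in place of -4.59, and leaving out anti-PD-L1 2 puts the T-cell median at 5.82 in place of 2.33. The fitted folds of T-cell genes at 0 with anti-PD-L1 depend on the prior count.

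The same exposures were compared under the empty vector (EV), in tumours of mice that received no IL-27 gene, to ask whether the difference depends on the vector. The IL-27-vector comparison minus the empty-vector one passed the test for 1 gene of 24440 (0.00409%), Vopp1, and with DESeq2 for 7 (0.0286%). The list medians under the IL-27 vector were 3.93 for the GTPases, 2.36 for the interferon-stimulated genes, 0.71 for the cholesterol genes and 0.83 for the fibroblast genes, against 2.35, 0.77, 0.62 and 0.37 in the same order under the empty vector. Under EV, Nsdhl was at 68.2 and 69.1 CPM with cabozantinib plus IL-27 and 42.3 and 35.5 CPM with anti-PD-L1. The order of this gene was thus the same under both vectors. The EV sums of the whole cholesterol list overlapped, at 3784 and 3307 CPM with cabozantinib plus IL-27 and 3362 and 1966 CPM with anti-PD-L1. Gbp2 under EV was at 32.5 and 177 CPM with cabozantinib plus IL-27 and 5.56 and 19.4 CPM with anti-PD-L1. The EV sums of the interferon-stimulated genes overlapped, at 362 and 1296 CPM with cabozantinib plus IL-27 and 394 and 668 CPM with anti-PD-L1. Those of the GTPases were 139 and 659 CPM with cabozantinib plus IL-27 and 53.4 and 139 CPM with anti-PD-L1. The squamous sums under EV were 11.9 and 9.45 CPM with cabozantinib plus IL-27 and 10.1 and 17.6 CPM with anti-PD-L1, without a library like anti-PD-L1 1. The 2 EV cabozantinib plus IL-27 libraries and EV anti-PD-L1 2 carry both muscle transcripts and Ngp, and EV anti-PD-L1 1 has 36.8 CPM of muscle transcripts and no Ngp, so the libraries of this contrast are not alike in make-up, and its part in these values was not tested.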

How the data were processed

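Estimated counts for 55401 Ensembl identifiers in 23 libraries, all whole numbers, were deposited by the authors. The tools named per the submitters' processing notes are HISAT2, StringTie, cutadapt and DESeq2, on build GRCm38. Tool versions are not given in the sources used, nor how counts were made or whether they use strand, so values of overlapping antisense genes and close copies are uncertain. Per the labels' protocols, libraries were stranded poly(A) with an RNA integrity number of at least 8. Deposited counts were rounded to whole numbers, which changed none. Symbols and coordinates came from GENCODE vM21, for 55141 identifiers.

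Libraries were grouped by title. The test was edgeR 4.0.16 (R 4.3.3) with TMM scaling, filterByExpr by group and the quasi-likelihood fit of 12 groups over all 23 libraries, with 11 residual degrees of freedom, a biological coefficient of variation of 0.623 and Benjamini-Hochberg adjustment over 24440 genes. SE is the absolute log2 fold change over the square root of F. A count of 3 in the anti-PD-L1 libraries stands for 0.0395 CPM. The 46 lists hold 677 genes, of which 670 were tested. Members and lists were chosen with earlier results of these data known. The named genes are up to 15 per direction with the smallest p and a mean of at least 1 CPM, up to 4 per list by smallest p, and a fixed set. Fdps was chosen after its values were seen, as were Hoxb13 and Vim. Not all genes that the rule names are described. Alternatives were DESeq2 1.42.0, RLE factors, other filters, fewer libraries, a replicate block, GC offsets, counts divided by 4, a fold threshold of 1.5 and leaving out libraries. The newer fit and leaving out the EV libraries were added after the data were seen. Scripts were tested on simulated data.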

Additional observations from a re-analysis of the deposited data

Results flagged for a closer look

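The difference between the vectors in the comparison of cabozantinib plus IL-27 with anti-PD-L1 passed the test for Vopp1, a membrane protein gene, with a log2 difference of 4.12 (IL-27 vector minus empty vector, edgeR adjusted p = 0.0105). Under the IL-27 vector it was at 32.6 and 33.2 CPM with cabozantinib plus IL-27 and 45.8 and 36.5 CPM with anti-PD-L1, and under the empty vector at 2.53 and 1.71 CPM with cabozantinib plus IL-27 and 36.0 and 56.3 CPM with anti-PD-L1. Both empty-vector combination libraries were thus low, and the other 6 libraries were alike. Leaving out any 1 of the 8 libraries except EV anti-PD-L1 1 raised the adjusted p above 0.05, to between 0.0603 and 0.273, with the log2 difference staying between 3.76 and 4.43. DESeq2 gave an adjusted p of 2.95e-12.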

How the results depend on the processing

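The count of 0 genes called between the exposures became 23 with DESeq2, 449 without a filter on low counts and 1 in a fit of the 4 libraries alone. Leaving out 1 of the 4 libraries gave 0 to 3, with the 3 calls (Lama3, Kprp, Col17a1) made without anti-PD-L1 2. The count was 0 under RLE factors, a 1 CPM filter, IL27v libraries only, the 8 like libraries, counts divided by 4, a GC offset, a fold threshold, the newer fit and the replicate block, which gave 0 over 23 libraries and 0 over 4. The cause of these moves was not tested. The count of 1 for the difference between vectors became 7 with DESeq2 and 101 without a filter, 1 with the replicate block, and 0 to 1 when a library was left out; without IL27v anti-PD-L1 2 the 1 gene was Lama3. Replicate numbers did not pair the libraries (correlation of deviations -0.002 over 13555 genes). Of the named genes' fold changes, Met turned negative without docetaxel 1 (-0.036), and ranged from -0.15 to 0.27 as 1 of the 4 libraries was left out. In the same way Perp ranged from -5.17 to 0.56, Krt16 from -6.34 to 0.64 and Sbsn from -3.56 to 0.35, positive without anti-PD-L1 1, and Dusp6 from -0.19 to 0.0047, positive without anti-PD-L1 2. With 2 libraries a group, neither small nor large fold changes passed the adjusted main test at this spread, among them Gbp2 (4.10) and Lama3 (-4.47). The count of 0 is therefore no measure of how large the differences are.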

Other observations

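Erythroid transcripts lay higher in both combination libraries for 5 of 6 tested genes (22% of all genes did). Their summed levels were 555 and 571 CPM with cabozantinib plus IL-27, against 21.2 and 446 CPM with anti-PD-L1. The median log2 fold change of 1.36 became 0.43 without anti-PD-L1 1, the low library. Ribosomal protein genes lay higher in both combination libraries for 14 of 18 (22% of all genes did), with a median of 0.24. Mitochondrially encoded transcripts summed to 23225 and 21353 CPM with cabozantinib plus IL-27 and 32152 and 21457 CPM with anti-PD-L1. Neutrophil-attracting chemokines differed among themselves. Cxcl5 was at 235 and 80.9 CPM with cabozantinib plus IL-27 and 2.47 and 23.8 CPM with anti-PD-L1, while Ppbp was at 8.94 and 12 CPM with cabozantinib plus IL-27 and 21.2 and 32.1 CPM with anti-PD-L1. None passed the adjusted test.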
